A study of Mus musculus with 34 samples.

Results

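The early growth response (Egr) genes encode zinc finger transcription factors that bind GC-rich sites in DNA, and Nab1 and Nab2 encode corepressors that bind Egr proteins and hold down their activity. The rule took the rows with the symbols Egr1, Egr2, Egr3, Egr4, Nab1 and Nab2, which makes 6 named genes. Of these, 4 are among the 11531 genes of the hippocampal tables: Egr1 (NM_007913), Egr3 (NM_018781), Nab1 (NM_008667) and Nab2 (NM_008668). Egr2 and Egr4 matched no row of any table, by symbol or by RefSeq transcript, and were not analysed here. The table of cultured hippocampal cells lists 3 of the 6 among 10379 genes (Egr1, Nab1 and Nab2), and that of embryonic stem cells lists 2 among 11029 (Nab1 and Nab2).

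The study sequenced ribosome-protected mRNA fragments (footprints, which count ribosomes on an mRNA) and RNA from the hippocampus of C57BL/6N mice. Control mice had no stimulus, and the other mice were taken at 5, 10 and 30 min and at 4 h after contextual fear conditioning, which pairs a chamber with a shock, with 3 footprint and 3 RNA libraries in each of the 5 groups. Per the labels, mice lived in single cages and had 3 min of handling on each of 4 days. For conditioning, a mouse spent 148 s in a chamber, received a foot shock of 2 s, and went home 30 s later. A hippocampal primary culture and the mouse embryonic stem cell (ESC) line A3-1, which had received a siRNA against luciferase for 48 h, gave 1 footprint and 1 RNA library each. The labels do not state the age or sex of the mice, how many mice a library holds, or whether replicates were separate mice. The p-values therefore rest on the spread between libraries alone, and that spread may be technical.

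Egr1 is a well known immediate-early gene: its transcription starts within minutes of neuronal activity without new protein synthesis, through MAP kinase signalling to the factors SRF, ELK and CREB at its promoter. In the hippocampus, Egr1 and Egr3 are known for their part in lasting synaptic change and memory. Nab2 is itself a target of Egr proteins, so the pair can form a negative feedback loop, and both Nab proteins contact the NuRD chromatin complex.

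The tissue footprint libraries held 14240563 to 30480009 reads on listed genes and the RNA libraries 16814796 to 25515210. The deposited values, called signal here, are read numbers scaled by 1 divisor for each library, and they were compared between libraries for 1 gene. Across the tissue libraries, Egr1 had 1429 to 4586 footprint reads and 236 to 664 RNA reads, and Egr3 had 1188 to 2162 and 138 to 238. Nab1 had 184 to 339 footprint reads and 1727 to 2303 RNA reads, and Nab2 had 325 to 825 and 329 to 528. Markers of excitatory neurons were present in every tissue library, with a summed footprint signal of 304 to 361 over 5 genes. The 10 choroid plexus markers varied with the replicate number: their summed footprint signal was 1314 to 2091 in replicate 1, 923 to 1901 in replicate 2 and 68.4 to 495 in replicate 3. In bulk tissue, fewer cells of a type and less RNA per cell cannot be told apart.

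Egr1 footprints were highest 30 min after conditioning and overlapped the controls again after 4 h. The signal in replicates 1, 2 and 3 was 6.88, 6.27 and 7.57 in controls, 7.39, 7.65 and 7.18 at 5 min, and 8.61, 9.26 and 8.20 at 10 min. It was 10.0, 9.30 and 10.3 at 30 min and 7.04, 6.32 and 5.99 at 4 h. All 3 libraries at 10 min and all 3 at 30 min lay above all 3 controls, whereas the groups at 5 min and at 4 h overlapped the controls. In order of level, 30 min stood above 10 min with no overlap of libraries, 10 min stood above 5 min with no overlap, and 5 min, control and 4 h each overlapped the next. How many of all genes showed no overlap between 10 and 5 min was not counted.

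The mean footprint signal of Egr1 at 30 min was 9.86 ± 0.51 (SD, n = 3), against 6.91 ± 0.65 in controls (n = 3), a ratio of 1.43. The log2 difference was 0.51 with a standard error (SE) of 0.087 (limma, Benjamini-Hochberg adjusted p = 0.198). It was rank 2 of all genes by p, and 1 gene, 0.00867% of those tested, was past the adjusted threshold of 0.05. Libraries with the same replicate number deviated together, and with that number as a block the same difference passed (adjusted p = 0.00152, with 0.052% of all genes past the threshold). The call with the block held when any 1 of the 6 libraries was left out, with adjusted p-values up to 0.0277. Of all genes, 1.28% had all 30 min libraries above all controls.

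At 10 min the mean of Egr1 was 8.69 ± 0.53, against 6.91 ± 0.65 in controls, a log2 difference of 0.33 (SE 0.087, limma adjusted p = 1.00, and 0.269 with the block, which called 0.0434% of all genes). Non-overlap in this direction was found in 1.65% of all genes, and 0.00867% were called. Without control replicate 3 the block fit called the difference (limma adjusted p = 0.0366). At 5 min the mean was 7.41 ± 0.23, and the log2 difference from control was 0.10 with a 95% confidence interval of -0.083 to 0.29. The step between 30 min and 10 min was 0.18 (interval -0.0057 to 0.37), with no overlap of libraries, as in 2.08% of all genes.

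At 4 h Egr1 footprints fell to 6.45 ± 0.53, against 9.86 ± 0.51 at 30 min, which is 0.654 of that level. The log2 difference was -0.61 (SE 0.087, limma adjusted p = 0.0226, and 8.87e-05 with the block), lower in 3 of 3 replicate numbers. Without the block, 0.0347% of all genes were called in this comparison. That call held without 4 h replicate 1 but was lost without any other of the 6 libraries, with adjusted p-values between 0.0208 and 0.25 over the 6 fits. With the block, which called 0.0607% of all genes, it held in 6 of 6, with adjusted p-values up to 0.00310. Against control, the 4 h level differed by -0.096 (interval -0.28 to 0.090).

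**Figure D1:**
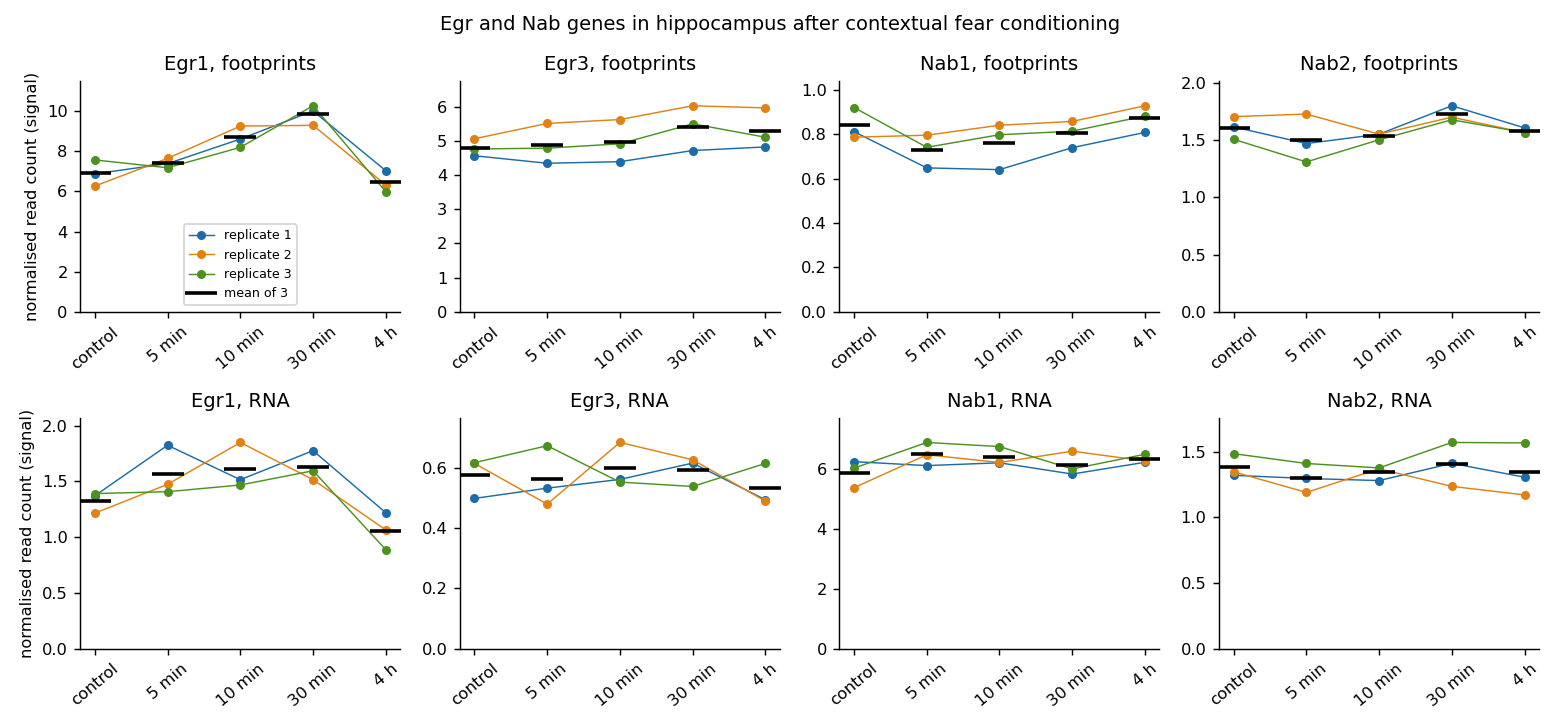
Signal (reads divided by 1 number per library) of each listed gene by group in hippocampus, footprints above and RNA below. Points are libraries, lines join the same replicate number and black bars are means of 3. Egr1 footprints lie between 9.30 and 10.3 at 30 min, above all controls, while the libraries of Egr3, Nab1 and Nab2 overlap those of control at every time.

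Egr1 RNA was above the controls in every library at 5, 10 and 30 min, and lowest at 4 h. The RNA signal was 1.37, 1.22 and 1.39 in control replicates 1, 2 and 3, 1.82, 1.47 and 1.41 at 5 min, and 1.51, 1.85 and 1.47 at 10 min. It was 1.78, 1.52 and 1.60 at 30 min and 1.22, 1.06 and 0.887 at 4 h. The libraries at 4 h overlapped the controls, and the 5, 10 and 30 min libraries overlapped each other. The means were 1.33 ± 0.096 in controls, 1.57 ± 0.22 at 5 min, 1.61 ± 0.21 at 10 min, 1.63 ± 0.13 at 30 min and 1.06 ± 0.17 at 4 h (SD, n = 3 each).

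None of the RNA differences of Egr1 from control passed the threshold. The log2 difference was 0.22 at 5 min (SE 0.12), 0.26 at 10 min and 0.28 at 30 min, each with a limma adjusted p of 1.00. With an offset of 1 in place of 0.1 the differences of Egr1 RNA were 0.14, 0.16 and 0.18, without 5 min replicate 1 the first was 0.11, and without 10 min replicate 2 the second was 0.16. With the block the limma adjusted p-values were 0.788, 0.405 and 0.440, and that fit called 0.0347% of genes at 5 min, 0.0434% at 10 min and 0.0347% at 30 min. All libraries above all controls was found in 3.01% of all genes at 5 min, 5.4% at 10 min and 4.27% at 30 min, and the limma fit without the block called 0% of genes at each, with 153, 221 and 206 genes at an unadjusted p under 0.05. With the block 713, 1163 and 1024 genes had such a p. At 4 h the log2 difference of Egr1 RNA from control was -0.31, with an interval of -0.57 to -0.047 (limma adjusted p = 1.00, and 0.142 with the block, which called 0.0434% of genes).

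Of the 6 RNA comparisons of Egr1, the largest difference was that between 4 h and 30 min. Its mean was 1.06 ± 0.17 at 4 h, against 1.63 ± 0.13 at 30 min, a log2 difference of -0.59 (SE 0.12) with no overlap of libraries, as in 2.42% of all genes. The adjusted p was 0.600 in the limma fit without the block, in which 0.0173% of genes were called, and 0.00150 with it, in which 0.0607% were. Without 4 h replicate 3 the call with the block was lost (limma adjusted p = 0.0660). It held when any other of the 6 libraries was left out.

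The choroid plexus markers had summed footprint signals of 1314, 1084 and 186 at 30 min in replicates 1, 2 and 3, against 2091, 1901 and 181 in controls, so the groups overlapped. They were lower at 30 min in replicates 1 and 2 and close to the control in replicate 3. Egr1 footprints in the same libraries were 10.0, 9.30 and 10.3 at 30 min, against 6.88, 6.27 and 7.57 in controls. The part of this tissue in the Egr1 values was not tested.

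Egr3, a related factor that neuronal activity also induces, had no call at any time. Its footprint signal was 4.57, 5.07 and 4.77 in control replicates 1, 2 and 3, 4.35, 5.51 and 4.79 at 5 min, and 4.39, 5.63 and 4.92 at 10 min. It was 4.72, 6.03 and 5.50 at 30 min and 4.83, 5.97 and 5.11 at 4 h. Replicate 2 was the highest library in every group, and the groups overlapped at every time. At 30 min and at 4 h each library was above the control of its own replicate number, in 3 of 3 pairs. How many of all genes had 3 of 3 pairs higher was not counted. A log2 difference above 0 was found in 56.4% of all genes at 30 min and 47.6% at 4 h.

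The mean footprint signal of Egr3 at 30 min was 5.42 ± 0.66, against 4.80 ± 0.25 in controls (n = 3 each). The log2 difference was 0.17 with an interval of -0.091 to 0.42 (limma adjusted p = 1.00). With the block its unadjusted p was 0.00471 and its adjusted p 0.999, rank 34 of all genes (limma). Egr3 RNA was low, with means of 0.579 ± 0.068 in controls, 0.564 ± 0.10 at 5 min, 0.601 ± 0.074 at 10 min, 0.595 ± 0.049 at 30 min and 0.534 ± 0.071 at 4 h. These levels overlapped throughout, and the log2 differences from control ran from -0.098 to 0.048.

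Whether Egr1 and Egr3 differed in their change was not tested. At 30 min the footprint interval for Egr1 was 0.32 to 0.70 and that for Egr3 was -0.091 to 0.42, so the intervals overlap.

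The corepressors Nab1 and Nab2 had no call at any time. Nab1 footprints were 0.812, 0.787 and 0.921 in control replicates 1, 2 and 3, 0.649, 0.796 and 0.742 at 5 min and 0.641, 0.841 and 0.799 at 10 min. They were 0.740, 0.858 and 0.815 at 30 min and 0.809, 0.929 and 0.883 at 4 h. The groups overlapped at every time, and replicate 1 was lowest in each group after conditioning. The mean at 5 min was 0.729 ± 0.075, against 0.840 ± 0.071 in controls, a log2 difference of -0.18 (interval -0.41 to 0.047).

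Nab1 RNA ran the other way at 5 min, with 6.49 ± 0.39 against 5.88 ± 0.45 in controls, a log2 difference of 0.14 (interval -0.016 to 0.30). It was 6.39 ± 0.31 at 10 min, 6.14 ± 0.40 at 30 min and 6.33 ± 0.14 at 4 h. None of the differences of Nab1 from control passed the threshold.

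Nab2 footprints were 1.62, 1.71 and 1.51 in control replicates 1, 2 and 3, 1.47, 1.73 and 1.31 at 5 min and 1.55, 1.55 and 1.504 at 10 min. They were 1.801, 1.70 and 1.68 at 30 min and 1.61, 1.57 and 1.57 at 4 h. The libraries at 30 min lay above all of those at 10 min and all of those at 4 h, and overlapped the controls. Nab2 averaged 1.73 ± 0.065 at 30 min and 1.54 ± 0.029 at 10 min, a log2 difference of 0.16 (interval -0.032 to 0.35, limma adjusted p = 1.00). All libraries higher was found in 2.08% of genes there. The difference between 4 h and 30 min was -0.12 (interval -0.31 to 0.070), and 2.7% of all genes had all libraries lower at 4 h. Nab2 RNA means lay between 1.30 ± 0.11 at 5 min and 1.41 ± 0.17 at 30 min, with 1.38 ± 0.089 in controls.

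Over the 4 listed genes and 16 comparisons, 1 of 64 tests was past the threshold in the fit without the block and 3 of 64 in the fit with it, all of them for Egr1. Over all genes and the same comparisons, the fits called 0.00434% and 0.0244% of tests. In the fit without the block, the 95% intervals at 30 min in the plot of log2 changes were -0.29 to 0.17 for Nab1 footprints and -0.094 to 0.29 for Nab2 footprints. They do not exclude a larger change.

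**Figure D2:**
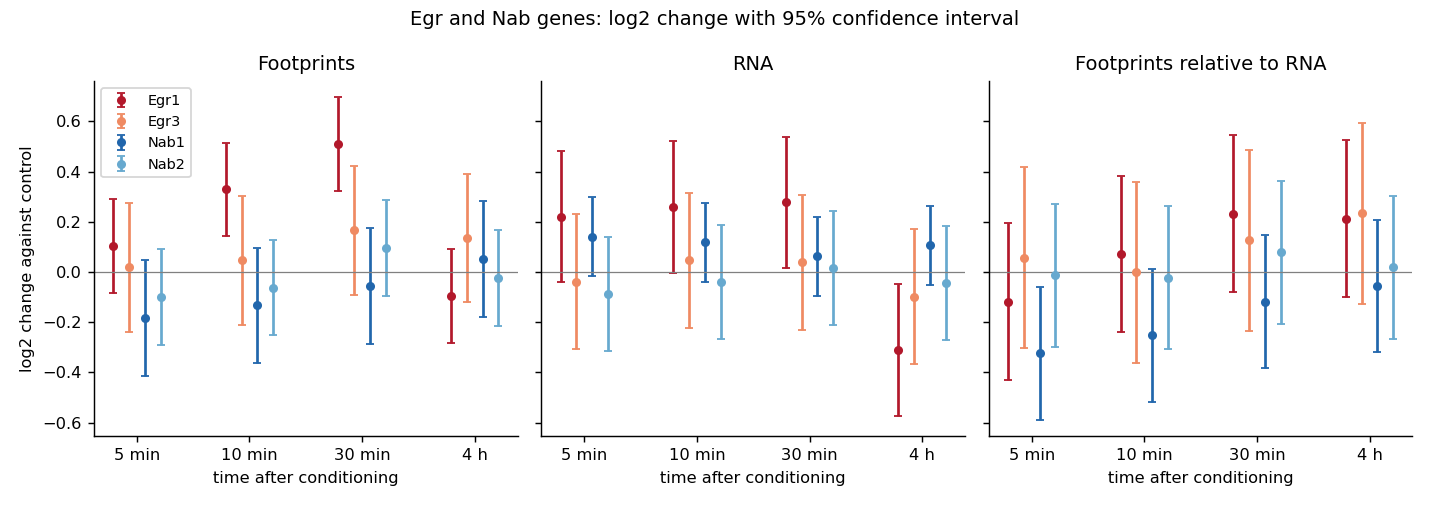
Log2 difference from control at each time for footprints, RNA and footprints relative to RNA. Points are the limma estimates from the fit without the block and bars are 95% confidence intervals. The interval of Egr1 footprints lies above 0 at 10 and 30 min, and the bars are wider for footprints relative to RNA than in the other panels.

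The promoters of both corepressors are shown because Nab genes are known Egr targets. The sequences are the 250 bases before the RefSeq start of each gene in GRCm38.p6, both on the minus strand, written 5′ to 3′ along the gene. The Nab1 window is chr1:52500449-52500698 and that of Nab2 is chr10:127666704-127666953. Capitals mark matches to the Egr site GCGNGGGCG on either strand.
Nab1: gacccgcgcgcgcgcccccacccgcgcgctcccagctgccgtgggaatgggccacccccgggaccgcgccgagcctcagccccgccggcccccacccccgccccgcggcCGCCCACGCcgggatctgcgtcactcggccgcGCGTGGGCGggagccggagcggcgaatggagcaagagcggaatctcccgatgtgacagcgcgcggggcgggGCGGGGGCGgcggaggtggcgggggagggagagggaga
Nab2: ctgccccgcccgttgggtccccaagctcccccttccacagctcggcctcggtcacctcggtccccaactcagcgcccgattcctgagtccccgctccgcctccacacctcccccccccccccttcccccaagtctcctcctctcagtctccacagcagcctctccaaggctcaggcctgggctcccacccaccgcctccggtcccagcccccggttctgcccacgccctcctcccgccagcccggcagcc
The Nab1 window holds 3 matches, at -141 to -133, -109 to -101 and -38 to -30 counted from the start of the gene, and the Nab2 window holds 0. Each of the 3 overlaps a match to the GC box GGGCGG, of which the Nab1 window has 6 and that of Nab2 has 1. Of 32851 windows of this length, with 1 chromosome left out, 4.7% hold the Egr site and 32.7% the GC box. Neither window holds the cAMP response element TGACGTCA, which 1.55% of windows do, or the CArG box of SRF, which 1.47% do. The Nab1 window holds 1 match to TGACG, as 17.8% of windows do. GC content is 80.8% in the Nab1 window and 72.8% in that of Nab2. A match describes the letters only, and the promoters of Egr1 and Egr3 are not shown.

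Footprints per RNA were high for Egr1 and Egr3, low for Nab1 and in between for Nab2. Footprint signal divided by RNA signal, set against the median gene of the same pair of libraries (translational efficiency, TE), was compared on the log2(signal + 0.1) scale over number-matched pairs. In controls the log2 TE was 2.83 ± 0.12 for Egr3, 2.27 ± 0.046 for Egr1, 0.18 ± 0.17 for Nab2 and -2.69 ± 0.093 for Nab1 (SD, n = 3 each). The 5th and 95th percentiles of all 11531 genes there were -1.60 and 1.42. Egr1 and Egr3 lay above that range and Nab1 below it. With an offset of 1 the values were 1.86 for Egr3, 1.75 for Egr1, 0.12 for Nab2 and -1.91 for Nab1, and the percentiles in controls were at least 98.65 for Egr1 and Egr3 and at most 0.98 for Nab1.

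With the offset of 0.1 this order held in each of the 15 tissue pairs. At an offset of 1 Egr1 stood above Egr3 in some pairs, among them replicate 1 at 30 min. The order of Egr1 and Egr3 therefore depends on the offset. The TE of Egr3 was rank 13 to 40 from the highest, and its footprint signal was 7.09 to 12.2 times its RNA signal. Egr1 was rank 38 to 219, with 4.05 to 6.75 times. Nab1 was rank 11432 to 11488, with 0.103 to 0.153 times, and Nab2 lay between the 45.58th and the 70.98th percentile, with 0.929 to 1.45 times. The labels do not state which part of a transcript was counted in each kind of library, so differences in TE between genes also hold that choice.

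Conditioning did not shift the TE of any of the 4 genes past the threshold: the limma interaction called 0% of all genes at 5, 10, 30 min and 4 h, with and without the block, and voom called 0 as well. Without the block 127, 131, 64 and 122 genes had an unadjusted p under 0.05, each less than 0.05 of all genes. With the replicate number as a block within each kind of library, 625, 589, 309 and 658 genes did, and 0 were called. The fit without the block keeps the spread between replicate numbers in its error, so its lack of calls says little about small changes. The TE of Egr1 differed from control by 0.23 at 30 min (interval -0.079 to 0.55) and by 0.21 at 4 h (interval -0.099 to 0.53). The furthest was Nab1, at -0.32 at 5 min (interval -0.59 to -0.059, unadjusted p = 0.0184, limma adjusted p = 1.00). Nab1 TE differed from control by -0.25 at 10 min (interval -0.52 to 0.012). Egr3 differed by 0.23 at 4 h (interval -0.13 to 0.59).

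**Figure D3:**
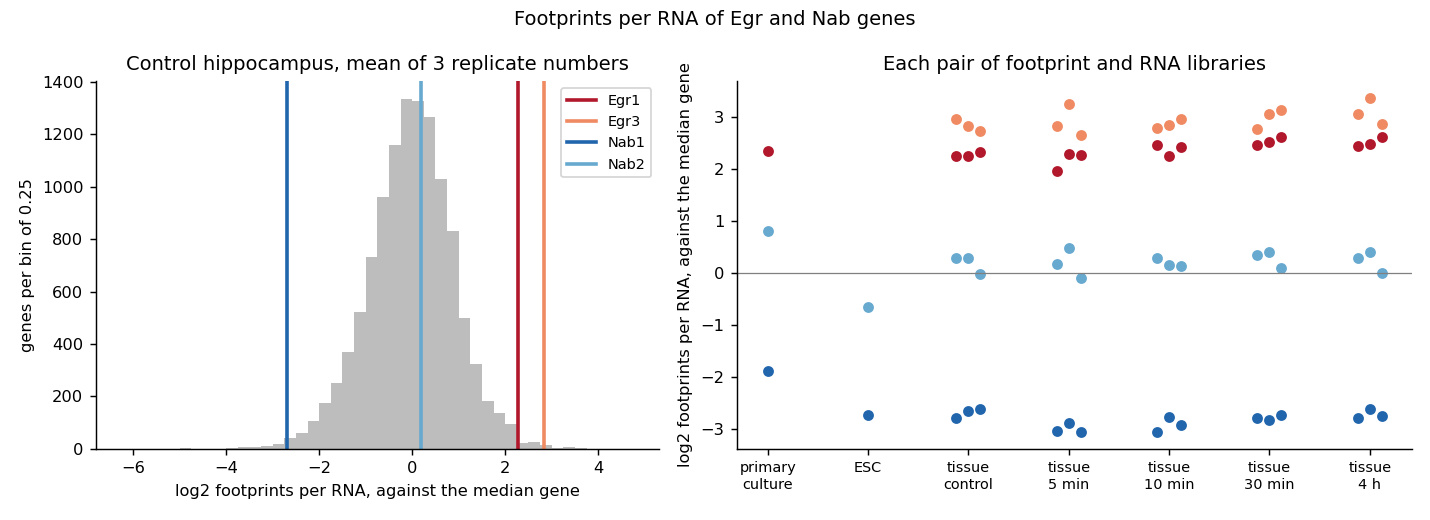
Log2 footprints per RNA against the median gene. Left, a histogram of all genes in control hippocampus with the 4 genes as lines. Right, each pair of libraries, with single pairs for the culture and ESC. Egr1 and Egr3 lie at or above 1.964, and Nab1 at or below -1.90, in every pair that lists them.

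In culture and in ESC each value is 1 library, so no test was made, and intervals cover counting error only. Pou5f1, Nanog, Zfp42 and Dppa5a, which mark pluripotent cells, had footprint signals of 47.9, 77.3, 91.9 and 101 in ESC. These are not listed in tissue or culture. Of the 7 pluripotency markers, 7 are listed in ESC, with a summed footprint signal of 450. In tissue and in culture 1 of the 7 is listed, with 2.48 to 3.43 in tissue and 2.93 in culture. The neuronal transporter Slc17a7 had 70.1 in culture, 0.150 in ESC and a mean of 102 over the 15 tissue libraries.

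Egr1 had a footprint signal of 5.16 (Poisson 95% interval 4.91 to 5.41) and an RNA signal of 0.915 (0.765 to 1.09) in culture. Its log2 TE there was 2.34 (interval 2.09 to 2.60), at the 99.55th percentile, against 2.27 ± 0.046 in control tissue. Egr1 is not listed in ESC. The footprint signals of Nab2 were 1.44 in culture and 1.01 in ESC, with RNA signals of 0.768 and 1.44. The log2 TE of Nab2 was 0.80 in culture (interval 0.50 to 1.099) and -0.66 in ESC (interval -0.86 to -0.47), against 0.18 ± 0.17 in control tissue. The footprint signals of Nab1 were 0.615 in culture and 0.193 in ESC, with RNA signals of 2.51 and 1.60. Its log2 TE was -1.90 in culture (interval -2.15 to -1.64) and -2.73 in ESC (interval -3.03 to -2.44), against -2.69 ± 0.093 in control tissue. Nab1 was at the 2.3rd percentile of TE in culture and the 0.66th in ESC. The offset moves these values: at an offset of 1 the log2 TE of Nab1 was -1.14 in culture and -1.24 in ESC, at the 3.9th and 3.48th percentiles, that of Nab2 was 0.45 and -0.39, and that of Egr1 in culture was 1.67. Levels set across these tables rest on separate normalisations by the authors.

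Genes whose pattern over the 15 tissue libraries was most like each member were found by Pearson's r on log2(signal + 0.1), after removing the mean of each replicate number. These libraries share groups, and r is a description. For Egr1 footprints the 5 genes were Arc (r = 0.953), Fos (0.942), Junb (0.934), Rpl17 (0.915) and Prkg1 (0.887). Arc, Fos and Junb are immediate-early genes, Rpl17 encodes a ribosomal protein and Prkg1 a cGMP-dependent kinase. Fos footprints averaged 1.06 at 30 min, against 0.398 in controls, a ratio of 2.65, and the ratio was 1.76 for Arc, 1.48 for Junb and 1.08 for Rpl17. For Egr1 RNA they were Zfp503 (0.891), Fos (0.855), Tmem138 (0.853), Slc25a29 (0.835) and Arc (0.828).

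None of the other members was among these 5. In footprints Egr3 had r = 0.38 with Egr1 (rank 1324), Nab2 had 0.355 (rank 1521) and Nab1 had -0.229 (rank 9606). Egr3 footprints were most like those of Rab15 (0.876), Tra2a, Plekha3, Lsm14a and Dlc1, Nab1 footprints like those of Ncald (0.872), Vapa, Snapc3, Mapk6 and Csnk1g2, and Nab2 footprints like those of Pdss2 (0.917), Prps1, Afg3l2, Dnajb2 and Lgals8. In RNA the leading genes were Rprml (0.924) for Egr3, Rasgef1a (0.929) for Nab1 and Fscn1 (0.891) for Nab2. Nab1 and Nab2 RNA had r = -0.656 with each other.

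**Figure D4:**
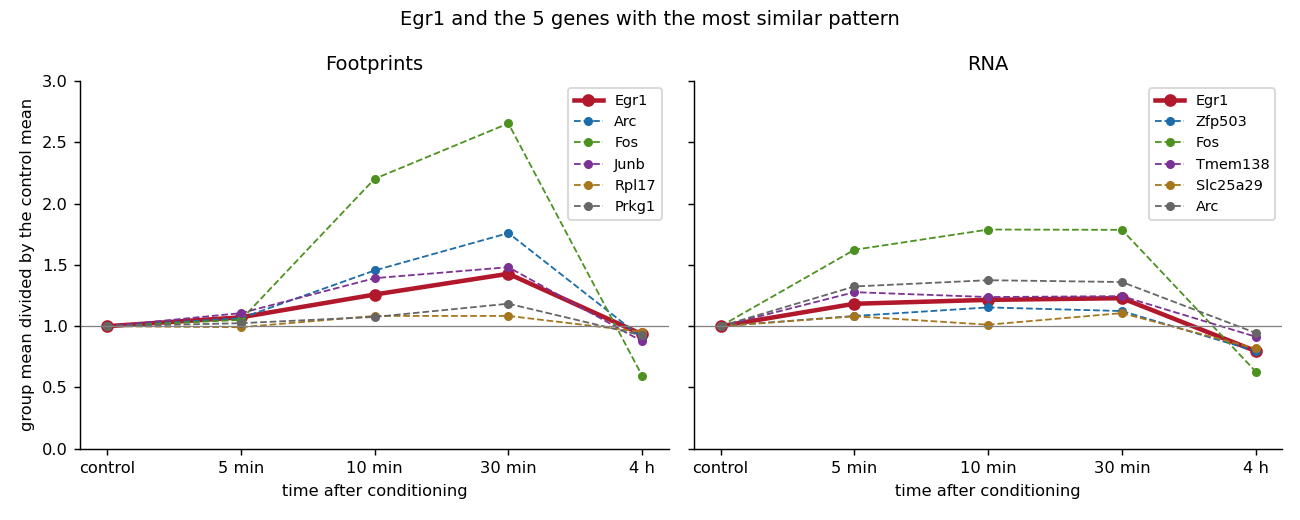
Group means divided by the control mean for Egr1 and the 5 genes with the highest correlation with it, in footprints (left) and RNA (right). Egr1 footprints reach 1.43 times control at 30 min, below Fos (2.65), Arc (1.76) and Junb (1.48), and all 6 lines end below 1 at 4 h.

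Of 11 genes listed as Egr targets, 9 are in the tables. In footprints at 30 min against control, 9 of 9 lay above 0, beside 56.4% of all genes, with a median log2 difference of 0.034 beside 0.011 over all genes, and limma called 0, with 1 at an unadjusted p under 0.05. Arc, whose mRNA is carried into dendrites, had the smallest p, with 7.94 ± 0.33 at 30 min against 4.51 ± 0.70 in controls (log2 difference 0.81, limma adjusted p = 0.198, and 3.53e-05 with the block). Bace1, the beta-secretase, was next, with 7.39 ± 0.92 at 30 min against 7.07 ± 0.24 in controls (limma adjusted p = 1.00). In RNA, Arc had 4.87 ± 0.28 at 30 min against 3.58 ± 0.35 in controls (limma adjusted p = 1.00, and 0.00364 with the block). In TE the smallest p at 30 min was that of Arc, with a log2 difference of 0.38 (limma adjusted p = 1.00). In footprints at 4 h against 30 min, Arc was the 1 gene of the 9 called, with a log2 difference of -0.95 (limma adjusted p = 0.0297), where 0.0347% of all genes were called. In RNA the same difference of Arc was -0.51, which passed only with the block (limma adjusted p = 0.174, and 0.000119 with the block). With the block Arc was also called against control in footprints at 10 min and in RNA at 5 and 10 min. Of all genes, the block fit called 0.0434% in footprints at 10 min and 0.052% at 30 min against control. In RNA it called 0.0347% at 5 min, 0.0434% at 10 min and 0.0347% at 30 min against control. At 4 h against 30 min it called 0.0607% in RNA. The block fit called no other gene of the list in footprints, RNA or TE.

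Of the 16 upstream regulators, which include SRF, the ELK factors, CREB with its coactivators, and MAP kinases, 16 are listed and limma called 0 at any time against control in footprints, RNA or TE, with or without the block. An unadjusted p under 0.05 was found once, for Crtc2 RNA at 30 min. Their median footprint difference at 30 min was 0.0055, with 8 of 16 above 0, beside 0.011 and 56.4% over all genes. The smallest p at 30 min in RNA was that of Crtc2, a CREB coactivator, with 0.307 ± 0.065 at 30 min against 0.395 ± 0.066 in controls (log2 difference -0.29, limma adjusted p = 1.00). Crtc2 also had the smallest p in footprints, with 0.348 ± 0.017 against 0.393 ± 0.070. Srf RNA was 2.86 ± 0.12 at 30 min against 2.63 ± 0.032 in controls, and Map2k2 footprints, of the kinase MEK2, were 3.60 ± 0.45 against 3.91 ± 0.54. In TE the smallest p were those of Crtc1, another such coactivator, with a log2 difference of 0.17, and Elk3, with -0.20.

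All 13 genes of the NuRD complex are listed, and limma called 0 at any time against control, with or without the block and also at an unadjusted p under 0.05 without it. At 30 min 9 of 13 footprint differences lay above 0 (median 0.019), beside 56.4% of all genes (median 0.011). The smallest p in footprints were those of the histone-binding subunit Rbbp4, with 8.43 ± 1.0 at 30 min against 9.01 ± 0.41 in controls, and Gatad2b, with 6.99 ± 0.52 against 6.79 ± 0.59. In RNA they were Gatad2a, with 1.68 ± 0.041 at 30 min against 1.57 ± 0.055 in controls, and Gatad2b, with 1.08 ± 0.078 against 1.00 ± 0.038. In TE they were Rbbp4, at -0.17, and the deacetylase Hdac2, at -0.16. In TE at 5 min against control, 0 of 13 lay above 0, with a median log2 difference of -0.11 beside -0.014 over all genes, of which 44.6% lay above 0. In its parts, 3 of 13 footprint differences lay above 0 (median -0.076, and 45.7% of all genes) and 12 of 13 RNA differences (median 0.045, and 55.6% of all genes). At the other times 4 of 13 TE differences lay above 0 at 10 min, 4 at 30 min and 5 at 4 h. The shares of all genes there were 35.3%, 42.5% and 41.6%. The 5 min count was the lowest over the times, and the list was not tested as a set.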

How the data were processed

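Footprint and RNA tables of 34 libraries were analysed. Per the submitters' processing notes, CASAVA 1.8.2, Bowtie 1.1.1 and the genome build mm9 were used, and the sources used here do not say how strand and multiple matches were counted. The deposited signal values have no unit in the file headers. Columns of log2 values, comparisons of the authors with control per the file headers, were not used. Each signal proved to be a whole number of reads divided by 1 number per library (within 0.001 reads), but the sources used here do not say what that number is or whether gene length enters. Depth means the reads so recovered.

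Comparisons used limma 3.58.1 in R 4.3.3 (lmFit and trended eBayes). Values were log2(signal + 0.1), and 1 model without a block held the 5 tissue groups. Tests were 2-sided, and p-values were adjusted by Benjamini-Hochberg over the 11531 genes, with 0.05 as the threshold. On this scale the change of low genes is understated. A minimum mean signal of 0.1 left out no gene. TE was the interaction of kind of library and time over both kinds of library. Deviations from the group mean correlated between libraries of the same replicate number with r of 0.397 to 0.859 in footprints and 0.258 to 0.755 in RNA. Between different numbers r was at most 0.07, but deviations cancel out within a group, so this r is no separate support. From the r of the same number, the numbers were taken to pair the samples. The fit with the replicate number as a block is given where it changes a call. That pairing comes from the data, not from the labels.

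Other offsets and filters, limma voom on the recovered reads, and leaving out each library were tried. The fits without the block were tested on simulated data that held no effect of replicate number. The fit with the block was not tested in this way. The 6 members named in the text, the 5 genes most like each, the 2 genes of each list with the smallest p at 30 min and any past the threshold are named. A result of 1 gene that this rule selects is not reported here. The members, lists and tests were chosen with earlier results of these data known. Promoter sequences are those of RefSeq (GRCm38.p6), which had entries for Nab1 and Nab2. Poisson intervals leave out any error beyond counting, and PCR copies of 1 molecule count separately.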

Additional observations from a re-analysis of the deposited data

How the results depend on the processing

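The replicate block changed 2 member calls: with it, 1 member (Egr1) was called in footprints at 30 min against control and 1 in RNA at 4 h against 30 min, where the fit without it called 0 of each. It changed no other member call. Voom with the block gave the same 1 and 1. Leaving out 1 library, the number of members called in footprints at 4 h against 30 min ranged over 0 to 1. With an offset of 1 the log2 TE was 1.67 for Egr1, -1.14 for Nab1 and 0.45 for Nab2 in culture, and -1.24 for Nab1 and -0.39 for Nab2 in ESC. Why libraries of the same replicate number deviated together was not tested.

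Signs that turned were all of uncalled differences. Voom scaled to total reads gave -0.016 for Egr3 RNA at 10 min against control, -0.0097 for Egr3 and -0.047 for Nab2 RNA at 30 min against control, and 0.0067 for Egr3 RNA at 30 min against 10 min. An offset of 1 gave 0.019 for Egr3 TE at 10 min. Leaving out 1 library, log2 differences in footprints ranged over -0.070 to 0.10 for Egr3 at 5 min against control, -0.044 to 0.13 for Egr3 at 10 min against control, -0.10 to 0.0053 for Nab1 at 30 min against control, -0.068 to 0.016 for Nab2 at 4 h against control, -0.026 to 0.15 for Nab1 at 30 min against 10 min and -0.12 to 0.050 for Egr3 at 4 h against 30 min. Leaving out 1 library, log2 differences in RNA ranged over -0.16 to 0.053 for Egr3 at 5 min against control, -0.039 to 0.10 for Egr3 at 10 min against control, -0.071 to 0.0080 for Nab2 at 10 min against control, -0.048 to 0.10 for Egr3 at 30 min against control, -0.00054 to 0.11 for Nab1 at 30 min against control, -0.061 to 0.10 for Nab2 at 30 min against control, -0.15 to 0.047 for Nab2 at 4 h against control, -0.041 to 0.12 for Egr1 at 30 min against 10 min, -0.057 to 0.076 for Egr3 at 30 min against 10 min, -0.021 to 0.14 for Nab2 at 30 min against 10 min and -0.17 to 0.030 for Nab2 at 4 h against 30 min. Leaving out 1 replicate number, log2 differences in TE ranged over -0.13 to 0.16 for Egr3 at 5 min against control, -0.11 to 0.040 for Nab2 at 5 min against control, -0.092 to 0.10 for Egr3 at 10 min against control, -0.082 to 0.042 for Nab2 at 10 min against control and -0.0066 to 0.039 for Nab2 at 4 h against control. 

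The count tests planned as alternatives, edgeR and DESeq2, were not run because the deposited values are not counts. Leaving out no gene, the filter of 0.1 gave the same values as none. Voom, the replicate block within kind, and the block with a library left out were chosen after seeing the data. The small number of Egr3 RNA and Nab1 footprint reads limits what their differences can show.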
